A study of Homo sapiens with 6 samples.

Results

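The 10 genes described here encode granins and the proteins that process prohormones: CHGA, CHGB, SCG2, SCG3, VGF, SCG5, PCSK1N, PCSK1, PCSK2 and CPE. They were chosen by gene symbol, with earlier results of these data known, and make up 10 of the 36601 genes listed in the count matrices. All 10 symbols were found.

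Granins are acidic soluble proteins of the regulated secretory pathway. They aggregate with calcium in the trans-Golgi network, take part in the formation of dense-core vesicles, and are cut into bioactive peptides there. The convertases PCSK1 and PCSK2 cut prohormones after basic residues, and carboxypeptidase E (CPE) then trims the basic residues from the new ends. In tumours of the sympathetic nervous system, such as neuroblastoma, chromogranins are used as markers of neuroendocrine differentiation.

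RNA was measured in single cells of SK-N-BE(2)-C, a human neuroblastoma line long kept in culture, with Seq-Well S3, in which cells settle with barcoded beads in an array of small wells. There were 3 groups of 2 libraries each. DMSO was the solvent control. TSA is the usual abbreviation of trichostatin A, which blocks the catalytic activity of histone deacetylases (HDACs). E6R is a compound known here only by its code name, and the title of the series names an inhibitor of the HDAC complex that is non-enzymatic. Doses and treatment times are not given in the sources used here, so the treatments could not be matched for either. All groups share the same line, which limits the results to it, and nothing in the labels says that the libraries of a group came from separate cultures. The p-values therefore measure only the spread between these libraries, which may be technical.

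After barcodes with at least 500 genes and at most 20% mitochondrial UMIs (unique molecular identifiers, each standing for 1 captured RNA molecule) were kept, the DMSO libraries kept 1861 and 3132 cells, the TSA libraries 2467 and 3292, and the E6R libraries 2891 and 3946, listed here and below as replicate 1 and then replicate 2. The kept cells held between 4206366 and 26180262 UMIs per library, with the DMSO libraries the shallowest. The mitochondrial share of UMIs was 5.83% and 6.20% under DMSO, 6.08% and 9.71% under TSA, and 1.55% and 1.51% under E6R. Between 0.759% and 2.53% of the cells of a library carried a barcode also kept in another library, and without them the same members passed the test. The adrenergic neuroblastoma markers HAND2 and DBH, a transcription factor and an enzyme of noradrenaline synthesis, were present in every library, HAND2 at 197 to 355 CPM (counts per 1000000 UMIs) and DBH at 158 to 1145 CPM. The immune markers PTPRC and CD3E and the Schwann cell marker SOX10 did not exceed 0.569 CPM in any library. Other markers of these lists were higher. The 6 Schwann cell markers summed to between 11.3 and 21.3 CPM, and the 8 blood and immune markers to between 0.978 and 29.4 CPM.

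The direct comparison of E6R with TSA showed higher SCG2 and SCG5 under E6R, and no other member passed. This was 2 of the 9 members that entered the test, beside 38.2% of all 16763 genes tested (adjusted p under 0.05, edgeR's quasi-likelihood test). For TSA against DMSO, 0 of 9 members passed in edgeR, beside 29.7% of all genes. At an unadjusted p under 0.05 there was 1 member, SCG5, and DESeq2 also called 1, again SCG5. With E6R set against DMSO, 0 of 9 members and 0% of all genes passed in edgeR, while 17.4% of all genes had an unadjusted p under 0.05. Among the members that was 1, SCG2, which was also the 1 member that DESeq2 called. PCSK2 had too few UMIs to enter the test. By the order of the libraries alone, both TSA libraries lay above both DMSO libraries for 3 of the 9 members (CHGA, VGF and PCSK1N) and below them for 1 (SCG5), beside 36.7% and 34.6% of all genes. Both E6R libraries lay above both DMSO libraries for 2 (SCG2 and SCG5) and below for 0, beside 24.6% and 22.7%. They lay above both TSA libraries for 2 (SCG2 and SCG5) and below for 3 (CHGA, VGF and CPE), beside 33.7% and 38.9%, so these counts were near or under the background. The comparisons share libraries with one another, so their values are given side by side and not as repeats.

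**Figure D1:**
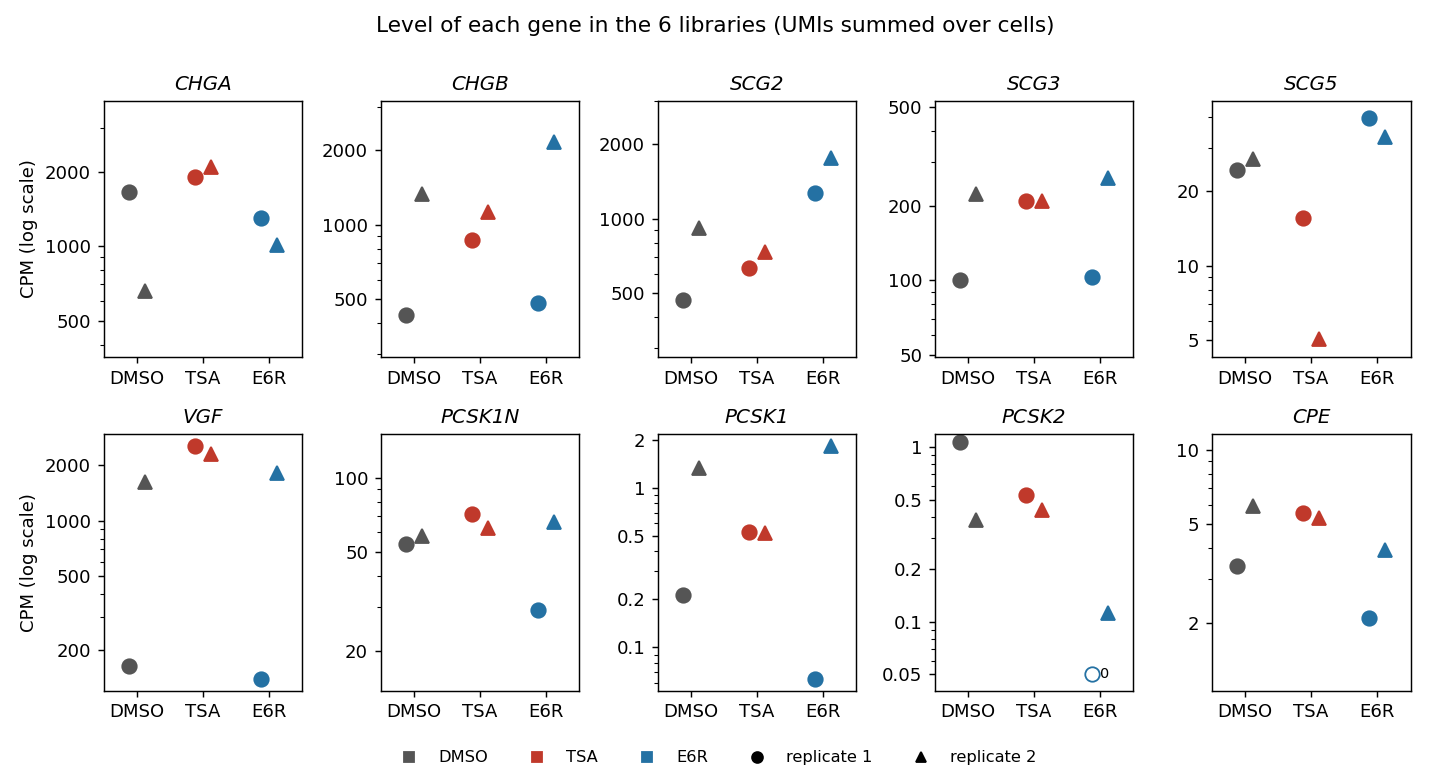
Level of each of the 10 genes in the 6 libraries, in CPM on a log axis, with circles for replicate 1, triangles for replicate 2 and an open circle for a count of 0. VGF and CHGB lay far apart between the DMSO and between the E6R replicates but close together under TSA, whereas SCG2 was above both other groups in both E6R libraries.

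Among the granins, SCG2 (secretogranin II, the precursor of the peptide secretoneurin; GRCh38 chromosome 2, 223596940 to 223602503, minus strand) was measured at 470 and 922 CPM under DMSO, 631 and 731 CPM under TSA, and 1269 and 1763 CPM under E6R. Both E6R libraries lay above all 4 others, and the TSA libraries lay between the DMSO libraries. SCG2 was higher under E6R than under TSA, at a log2 fold change of 1.16 with an SE of 0.33 (adjusted p = 0.0281). The call depended on single libraries: when TSA replicate 1, TSA replicate 2 or E6R replicate 2 was left out, the adjusted p was 0.151, 0.113 and 0.0721 in turn, at log2 fold changes of 1.06, 1.26 and 0.92. Against DMSO the log2 fold change under E6R was 1.12 (SE 0.33), with an unadjusted p of 0.0101 and an adjusted p of 0.211 in edgeR. In DESeq2 the adjusted p was 0.0439. The same log2 fold change was 0.85 without DMSO replicate 1 and 1.73 without DMSO replicate 2. Between TSA and DMSO it was -0.03 (SE 0.33, adjusted p = 0.953).

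CHGA (chromogranin A, the most widely used serum marker of neuroendocrine tumours; chromosome 14, 92923080 to 92935293, plus strand) had 1660 and 658 CPM under DMSO, 1908 and 2095 CPM under TSA, and 1301 and 1008 CPM under E6R. Both TSA libraries lay above both DMSO and both E6R libraries, and the E6R libraries lay between the DMSO libraries. The log2 fold change was 0.79 for TSA against DMSO (SE 0.39, adjusted p = 0.165) and -0.79 for E6R against TSA (SE 0.39, adjusted p = 0.146), so neither passed. With only the E6R and TSA libraries in the fit the latter was -0.73 and passed (adjusted p = 0.0360). Between E6R and DMSO it was -0.01 (SE 0.39, adjusted p = 0.997). Without DMSO replicate 1, which left the lower of the 2 DMSO libraries as the only control, the TSA value was 1.64 (adjusted p = 0.0185), and without DMSO replicate 2 it was 0.19 (adjusted p = 0.642). In the fit with the replicate number as a block, CHGA passed at 0.91 for TSA against DMSO (adjusted p = 0.0337) and at -0.84 for E6R against TSA (0.0368).

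CHGB (chromogranin B, a second chromogranin of the same vesicles; chromosome 20, 5911430 to 5925361, plus strand) had 430 and 1334 CPM under DMSO, 864 and 1128 CPM under TSA, and 481 and 2153 CPM under E6R. The groups overlapped in every comparison, and the lowest and the next lowest value were the libraries numbered 1 of DMSO and E6R. SCG3 (secretogranin III, which binds CHGA and the cholesterol-rich vesicle membrane; chromosome 15, 51681353 to 51721031, plus strand, overlapped on the other strand by AC020892.1 and AC020892.2) had 100 and 224 CPM under DMSO, 208 and 209 CPM under TSA, and 103 and 260 CPM under E6R. Its TSA libraries were nearly equal and lay inside the range of both other groups. Over the 3 comparisons the adjusted p of CHGB ranged from 0.668 to 0.866 and that of SCG3 from 0.584 to 0.882.

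VGF (a nerve growth factor-inducible precursor of neuropeptides; chromosome 7, 101162509 to 101165593, minus strand) had 164 and 1608 CPM under DMSO, 2537 and 2278 CPM under TSA, and 140 and 1807 CPM under E6R. Both TSA libraries lay above all others, DMSO replicate 1 and E6R replicate 1 were low, and the DMSO and E6R libraries numbered 2 were close to the TSA level. The spread between the low and the high libraries left the log2 fold change of TSA against DMSO at 1.44 with an SE of 1.16 (adjusted p = 0.374). E6R against TSA gave -1.31 (SE 1.16, adjusted p = 0.399), and ran from -4.09 without E6R replicate 2 (adjusted p = 0.0156) to -0.34 without E6R replicate 1 (0.803). The value of TSA against DMSO ran from 0.62 without DMSO replicate 1 to 3.80 without DMSO replicate 2, with adjusted p of 0.737 and 0.103. In a fit with the replicate number as a block, VGF passed at 2.66 for TSA against DMSO (adjusted p = 0.0167) and at -2.62 for E6R against TSA (0.0152); what the number stands for is not given in the labels. The E6R and DMSO libraries differed by 0.14 (SE 1.14, adjusted p = 0.965).

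The start regions of these genes are shown because CHGA, VGF and PCSK1 share a run of letters there. In RefSeq windows of 300 bases on GRCh38.p14 (250 before to 50 after the annotated start), 8 of the 10 genes matched, with 10 windows in all. CHGB and SCG2 had no window, so their start regions were not searched. The palindrome TGACGTCA, the full cyclic AMP response element to which CREB1 binds, was in 3 of the 10 windows, those of CHGA, VGF and a start of PCSK1, and in 1.85% of 35116 windows of all genes. Its first part, TGACG, was found on either strand in 8 of the 10 windows, of 7 members, and in 24.6% of all windows. Distances here are from the RefSeq starts, which for CHGA, VGF, PCSK1 and SCG3 lie inside the GENCODE gene spans given with each gene, so that all but the VGF stretch lie inside those spans. The element began 54 bases upstream of the start of CHGA, 79 bases upstream of that of VGF and 77 bases upstream of that of PCSK1. The stretches are printed 5′ to 3′ on the strand of the gene, with the element in capitals and 11 bases on each side, at chr14:92923085-92923114 (plus strand), chr7:101165630-101165659 (minus strand) and chr5:96433307-96433336 (minus strand):
CHGA: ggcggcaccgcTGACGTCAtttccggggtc
VGF: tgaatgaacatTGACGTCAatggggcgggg
PCSK1: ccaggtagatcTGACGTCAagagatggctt
The window of SCG3 held the letters TTCAGCACC, the first part of the element recognised by the repressor REST, 9 bases downstream of the RefSeq start, with GGACAG, the letters of its second part, at base 26. The 9 letters were in 0.376% of all windows and the 6 letters in 20.5%, on either strand. Windows of VGF, PCSK1 and PCSK2 also held the 6 letters. The SCG3 stretch lies at chr15:51681511-51681533 (plus strand), with both parts in capitals and other letters between them:
SCG3: TTCAGCACCcacagggcGGACAG
A match describes the letters only; no binding was measured. CREB1 itself was at 77.1 and 62.2 CPM under DMSO, 40.5 and 42.1 CPM under TSA, and 63.5 and 64.0 CPM under E6R.

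SCG5 (secretogranin V, the chaperone that PCSK2 needs to mature; chromosome 15, 32641676 to 32697098, plus strand, overlapped on the other strand by the antisense gene AC123768.1) was measured at 24.4 and 27.0 CPM under DMSO, 15.6 and 5.05 CPM under TSA, and 39.4 and 33.1 CPM under E6R. The 3 groups did not overlap: TSA was lowest and E6R highest. The libraries held 115 and 141 UMIs of SCG5 under DMSO, 206 and 58 under TSA, and 624 and 879 under E6R. SCG5 was higher under E6R than under TSA, at a log2 fold change of 1.80 with an SE of 0.46 (adjusted p = 0.0170). Without TSA replicate 2 it was 1.21, with an adjusted p of 0.0523, and without TSA replicate 1 it was 2.85. For TSA against DMSO the log2 fold change was -1.31 (SE 0.46, adjusted p = 0.0667). Its adjusted p over 19 alternative settings ranged from 0.000234 to 0.225, and 8 of them passed. With TSA replicate 1 left out the log2 fold change was -2.32, and with TSA replicate 2 left out it was -0.68. The log2 fold change of E6R against DMSO was 0.49 (SE 0.45, adjusted p = 0.599). TSA replicate 2 was also the library with the highest mitochondrial share, and the part of that share in the value was not tested.

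PCSK1N (proSAAS, an inhibitor of PCSK1; chromosome X, 48831094 to 48835633, minus strand) had 54.0 and 58.1 CPM under DMSO, 71.0 and 62.4 CPM under TSA, and 29.1 and 66.4 CPM under E6R. The TSA libraries lay above both DMSO libraries and the E6R libraries on either side of them. The log2 fold changes were 0.25 for TSA against DMSO (SE 0.35, adjusted p = 0.616), -0.23 for E6R against DMSO (SE 0.35, adjusted p = 0.772) and -0.48 for E6R against TSA (SE 0.35, adjusted p = 0.306). With E6R replicate 2 left out the last was -1.17 (adjusted p = 0.00662).

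The 3 processing enzymes were the members with the fewest UMIs. CPE (chromosome 4, 165361194 to 165498320, plus strand) was counted with 16 and 31 UMIs under DMSO, 73 and 61 under TSA, and 33 and 105 under E6R. This came to 3.40 and 5.93 CPM, 5.55 and 5.31 CPM, and 2.09 and 3.95 CPM, so both E6R libraries lay below both TSA libraries. The log2 fold change of CPE was 0.21 for TSA against DMSO (SE 0.49, adjusted p = 0.763), -0.62 for E6R against DMSO (SE 0.49, adjusted p = 0.541) and -0.83 for E6R against TSA (SE 0.47, adjusted p = 0.197). PCSK1 (chromosome 5, 96390415 to 96434143, minus strand) was counted with 1 and 7 UMIs under DMSO, 7 and 6 under TSA, and 1 and 49 under E6R. The 49 UMIs of E6R replicate 2 came from 18 cells, and 1 cell held 17 of them. PCSK1 did not pass in any comparison, and no fold is given because 2 of its libraries held 1 UMI each. PCSK2 (chromosome 20, 17226107 to 17484578, plus strand) was counted with 5 and 2 UMIs under DMSO, 7 and 5 under TSA, and 0 and 3 under E6R. The 0 UMIs of E6R replicate 1 allow a level of up to 0.190 CPM at a floor of 3 counts. At this depth no difference in PCSK1 or PCSK2 between the groups was detectable. CPE and PCSK2 overlap other annotated genes, CPE on the same strand MIR578, and the strand rule of the counting is not given in the sources used here.

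**Figure D2:**
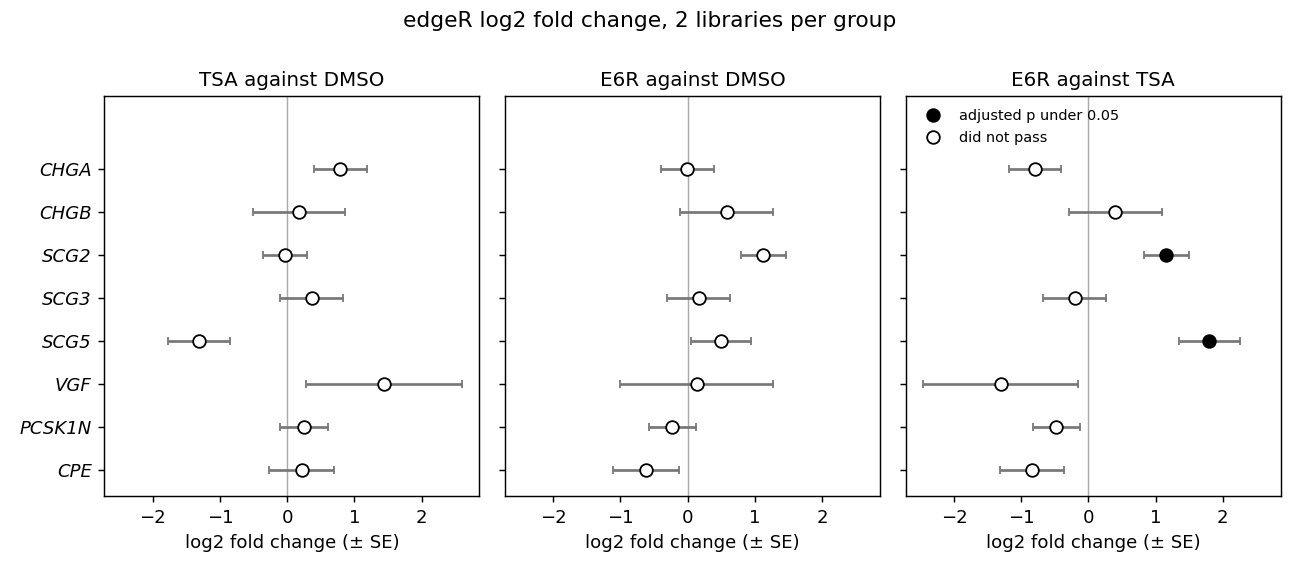
Fitted log2 fold change and its SE for the 8 members with a reported fold, in the 3 comparisons, with filled points where the adjusted p was under 0.05. The filled points are SCG2 (1.16) and SCG5 (1.80) for E6R against TSA, and the wide bars of VGF show an SE of 1.14 to 1.16.

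Several of these genes differed widely between the libraries of 1 treatment. VGF was 9.83 times higher in replicate 2 than in replicate 1 under DMSO and 12.9 times higher under E6R, while under TSA the ratio was 0.898. By the size of the replicate difference VGF ranked 10th of 7515 genes with a mean of at least 20 CPM under DMSO, and 12th under E6R. CHGB was 3.10 times higher in replicate 2 under DMSO, 4.47 times higher under E6R and 1.31 times higher under TSA. SCG3 followed with 2.23, 2.53 and 1.01. The order was the opposite for CHGA under DMSO, where replicate 1 was 2.52 times higher.

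Of the 7 members with a mean of at least 20 CPM, 4 differed at least 2-fold between the DMSO replicates and 4 between the E6R replicates. The same held for 4.28% and 6.03% of all genes at that level. Under TSA this was 1 member, SCG5, beside 1.02% of all genes. SCG5 ranked 7th of the 7515 genes there. Of the 9 tested members 7 were higher in replicate 2 under both DMSO and E6R, which was so for 30.4% of all genes, and CHGA was higher in replicate 1 in both, as were 27.6% of all genes. The 7 include PCSK1, which had 1 UMI in replicate 1 of either group, and CPE, with 16 and 31 UMIs under DMSO. They also include PCSK1N, at 54.0 and 58.1 CPM under DMSO.

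**Figure D3:**
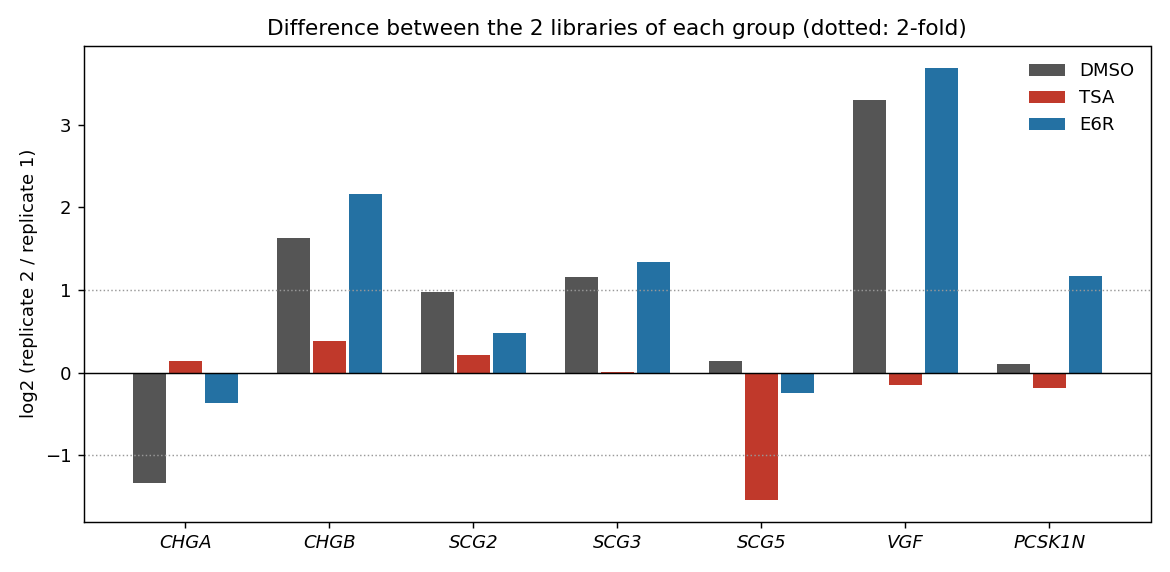
Log2 ratio of replicate 2 to replicate 1 in each group for the 7 members with a mean of at least 20 CPM, with dotted lines at a 2-fold difference. The DMSO and E6R bars of VGF, CHGB and SCG3 pass the upper line while their TSA bars stay near 0, and SCG5 passes the lower line under TSA only.

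Other genes differed between replicates in the same libraries, and their part in the member values was not tested. REST, the repressor of many neuronal and granin genes, had 55.0 and 17.8 CPM under DMSO, 27.7 and 22.9 CPM under TSA, and 69.0 and 11.5 CPM under E6R. It was higher in replicate 1 under DMSO and E6R, against the order of VGF, CHGB and SCG3. CHGA had the same order as REST, with 1660 and 658 CPM under DMSO and 1301 and 1008 CPM under E6R. PTPRN, a membrane protein of dense-core vesicles, had the replicate order of VGF under DMSO (30.0 and 165 CPM) and E6R (23.0 and 87.4 CPM). Under TSA it had 110 and 146 CPM. DBH had that order too, with 194 and 724 CPM under DMSO and 224 and 1145 CPM under E6R. Its TSA libraries, at 162 and 158 CPM, lay below all others, whereas those of VGF lay above all others.

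Of the 29 tested genes of dense-core vesicle biogenesis and exocytosis, 15 were higher in replicate 2 under both DMSO and E6R and 3 in replicate 1. Over all genes the shares were 30.4% and 27.6%. Of 9 tested mesenchymal or fibroblast markers the counts were 1 and 6. For 13 tested adrenergic markers they were 6 and 5, and for 13 tested neuroendocrine transcription regulators 3 and 6. The fibroblast marker DCN had 56.9 and 1.91 CPM under DMSO, 63.0 and 29.0 CPM under TSA, and 165 and 1.92 CPM under E6R. The summed level of the 10 mesenchymal markers, to which VIM contributed most, was 1669 and 1201 CPM under DMSO, 3813 and 2632 CPM under TSA, and 2820 and 2012 CPM under E6R. That of the 13 adrenergic markers was 2816 and 3130 CPM, 1700 and 1869 CPM, and 3346 and 4278 CPM. The 8 blood and immune markers summed to between 0.978 and 29.4 CPM. Of the 3 tested, 0 were higher in replicate 2 under both DMSO and E6R and 1 in replicate 1. PECAM1 had 21.7 and 1.15 CPM under DMSO, 3.42 and 1.83 CPM under TSA, and 27.7 and 0.376 CPM under E6R. PTPRN, DBH, DCN and PECAM1 were picked outside the rule by which list genes were named, so they do not stand for their lists.

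The share of cells with at least 1 UMI was compared after each cell was thinned to 1000 UMIs. Shallower cells were left out, 674 and 1450 of the DMSO libraries, 615 and 503 of TSA and 692 and 1718 of E6R. VGF was found in 11.5% of the DMSO replicate 1 cells (exact 95% binomial interval 9.70 to 13.4) and in 73.2% of the DMSO replicate 2 cells (71.1 to 75.3). Under TSA the shares were 66.4% and 70.9%, and under E6R 10.7% and 69.6%. Without thinning they were 17.0% and 75.8%, 79.2% and 84.2%, and 24.9% and 81.2%. Over the thinned cells with at least 1 UMI of VGF, where the mean cannot be under 1, it was 1.43 and 2.24 UMIs under DMSO and 1.26 and 2.36 UMIs under E6R.

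CHGB was found in 27.9% and 70.3% of thinned DMSO cells, 44.5% and 53.4% of TSA cells, and 27.0% and 81.6% of E6R cells. SCG2 was found in 33.9% and 59.2% of DMSO cells, 39.1% and 38.5% of TSA cells, and 56.7% and 75.0% of E6R cells, so E6R replicate 1 was below DMSO replicate 2 in the share although above it in CPM. For CHGA the shares were 61.0% and 44.6% under DMSO, 64.2% and 74.7% under TSA, and 55.3% and 54.8% under E6R. SCG3 ranged from 8.50% to 22.3%, PCSK1N from 2.27% to 6.42% and SCG5 from 0.323% to 4.46%. CPE was in at most 0.654% of thinned cells, PCSK1 in at most 0.178% and PCSK2 in at most 0.108%. The intervals cover counting error only, and for 2 libraries against 2 the smallest p of an exact permutation test (two-sided) is 0.333.

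**Figure D4:**
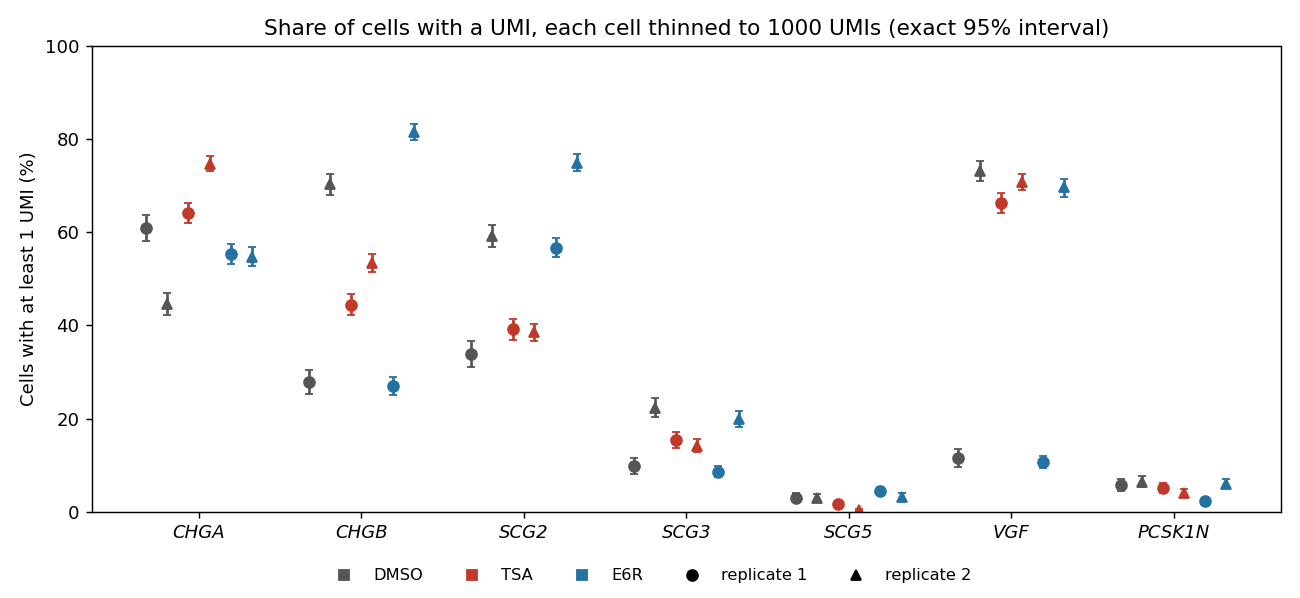
Percentage of cells with at least 1 UMI of each gene after thinning to 1000 UMIs per cell, with exact 95% binomial intervals, by library. The replicate 1 libraries of DMSO (11.5%) and E6R (10.7%) stand far below the other 4 for VGF, and CHGB shows the same order with a smaller gap.

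The difference did not sit in cells of 1 depth. With the cells of each library split into 3 equal parts by UMIs per cell, VGF had 158, 130 and 202 CPM from the shallowest to the deepest part in DMSO replicate 1 and 1357, 1543 and 1942 CPM in DMSO replicate 2. In E6R replicate 1 the parts had 104, 146 and 141 CPM, and in E6R replicate 2 they had 1967, 1660 and 1841 CPM. Barcodes with too few genes to be kept as cells carried the members at levels close to those of the cells: over the 7 members with more than 20 UMIs in both, the ratio of small barcodes to cells of the same library lay between 0.539 and 1.52. No cell types were called, so no cells known to lack these genes were available, and free RNA and low expression could not be separated. In the library sums fewer positive cells and less RNA per cell cannot be told apart.

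How far the granins varied together from cell to cell within a library could not be judged at this depth. Over the 10 pairs of CHGA, CHGB, SCG2, SCG3 and VGF in 6 libraries, Pearson's r lay between -0.08 and 0.23. It was computed on the log2 of thinned counts plus 1. Counting noise in such sparse counts holds r near 0 with or without common variation, so the values are a description only. Cells with UMIs of at least 3 members made up 19.0% and 61.2% of thinned DMSO cells, 46.0% and 53.7% of TSA cells, and 21.2% and 72.2% of E6R cells. Cells without a UMI of any member made up 17.8% of thinned cells in DMSO replicate 1 and 15.1% in E6R replicate 1, against 1.35% to 4.97% in the other 4 libraries.

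The wider secretory pathway was described with 5 lists of genes, without a test of the lists. Genes of the vesicle proton pump, which acidifies the granule interior where the convertases work, were higher under TSA than under DMSO in 7 of 16 and lower in 0, beside 16.2% and 13.5% of all genes. Their median log2 fold change was 0.76, against -0.01 over all genes tested. ATP6V1D had 67.1 and 78.4 CPM under DMSO and 238 and 203 CPM under TSA (log2 fold change 1.60, SE 0.20, adjusted p = 0.00187), ATP6V0D1 rose by 1.47 and ATP6V1E1 by 1.34 on the log2 scale. Against TSA, E6R was lower for 5 of the 16 pump genes and higher for 1, beside 19.5% and 18.7% of all genes, with a median of -0.54. ATP6V1D, ATP6V0D1 and ATP6V1E1 had log2 fold changes of -1.44, -1.50 and -1.03 there. Both comparisons share the TSA libraries. Leaving out DMSO replicate 2, TSA replicate 1 or TSA replicate 2 gave a first count of 3 each time, and leaving out TSA replicate 2 gave 3 calls in the second comparison.

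Of 29 tested genes of vesicle biogenesis and exocytosis, 6 were higher and 5 lower under TSA than under DMSO (median 0.05). Over all genes 16.2% were higher and 13.5% lower. CYB561, the vesicle membrane cytochrome that passes electrons to the interior for peptide amidation and noradrenaline synthesis, fell from 988 and 1367 CPM to 37.2 and 30.0 CPM. Its log2 fold change of -5.13 had an SE of 0.45 and an adjusted p of 0.000732. BAIAP3 rose from 2.34 and 7.46 CPM to 111 and 91.3 CPM (4.35, SE 0.56, adjusted p = 0.00201), and HID1 from 3.19 and 11.9 CPM to 40.3 and 48.0 CPM (2.54, SE 0.65, adjusted p = 0.0222). Both proteins take part in dense-core vesicle maturation and recycling. Between E6R and TSA, 9 genes of the list were higher and 8 lower (median 0.22), beside 18.7% and 19.5% of all genes. In that comparison CYB561 stood at 5.30, BAIAP3 at -5.72 and HID1 at -2.50. Leaving out DMSO replicate 1 gave 7 calls for TSA against DMSO and leaving out TSA replicate 2 gave 4, while for E6R against TSA the number was 8 and 7 when TSA replicate 1 and TSA replicate 2 were left out. HID1 lost its call for TSA against DMSO when DMSO replicate 1, TSA replicate 1 or TSA replicate 2 was left out, with adjusted p of up to 0.108.

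**Figure D5:**
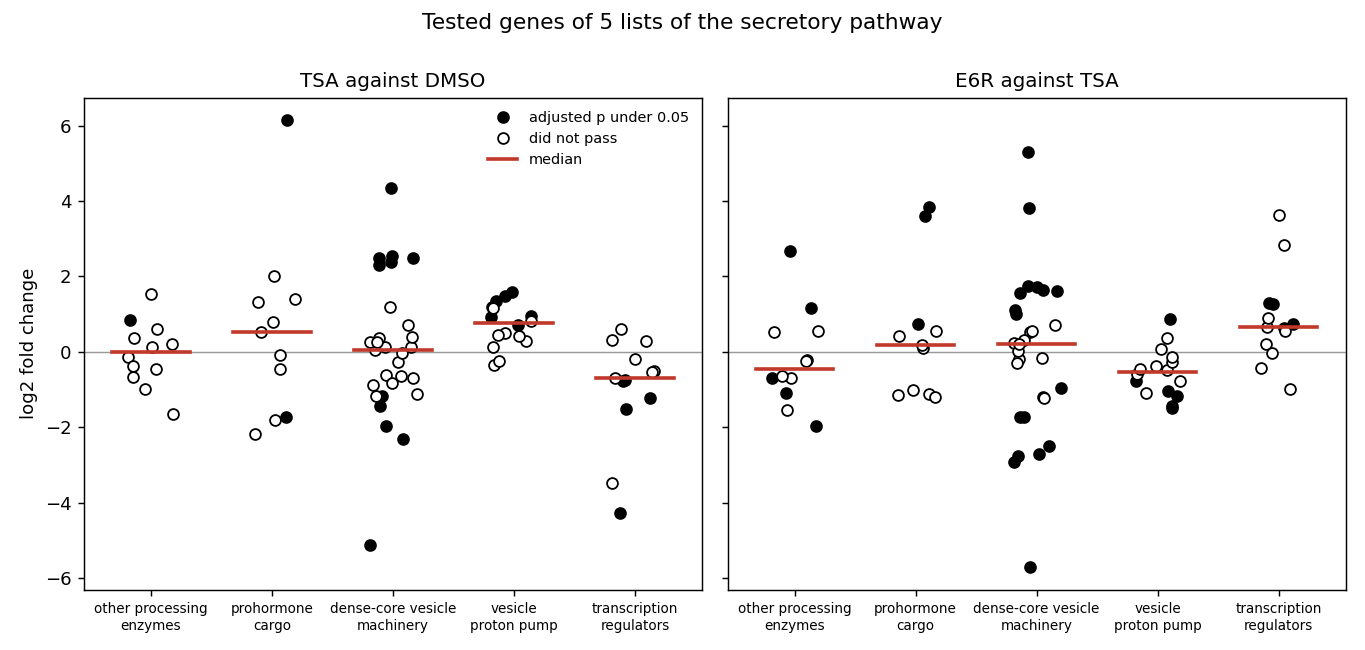
Fitted log2 fold change of each tested gene of 5 lists, for TSA against DMSO and for E6R against TSA, with filled points where the adjusted p was under 0.05 and a bar at the list's median. The proton pump median is 0.76 on the left and -0.54 on the right; the topmost cargo point on the left is NPPC, which had no UMI under DMSO, so that its height depends on the fit and is no measure of size.

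Of the other 12 processing enzymes, 1 was higher and 0 were lower under TSA than under DMSO, with a median of -0.01. The shares of all genes were 16.2% and 13.5%. The higher gene was CPD, a carboxypeptidase of the trans-Golgi network with the same specificity as CPE. It was at 47.2 and 61.0 CPM under DMSO and 99.7 and 92.9 CPM under TSA (log2 fold change 0.83, SE 0.22, adjusted p = 0.0276). With total UMIs as the only scaling CPD was at 0.52 (adjusted p = 0.117), and it also lost its call without DMSO replicate 1 (0.144), DMSO replicate 2 (0.0740), TSA replicate 1 (0.135) or TSA replicate 2 (0.108). FURIN, the convertase of the constitutive pathway, and PAM, the amidating enzyme, had adjusted p of 0.186 and 0.293. Under E6R relative to TSA, CTSL and QPCT were higher and CPD, PCSK7 and PCSK4 lower, beside 18.7% and 19.5% of all genes. That count of 5 was 3 when DMSO replicate 2 or E6R replicate 2 was left out, 1 in the absence of TSA replicate 1 and 0 in that of TSA replicate 2.

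Among 24 prohormones carried as cargo, 11 had enough UMIs to be tested. Of these, 1 was higher and 1 lower under TSA than under DMSO, beside 16.2% and 13.5% of all genes. The lower gene was CRH, the corticotropin-releasing hormone precursor, with 10.2 and 13.0 CPM under DMSO, 3.72 and 3.31 CPM under TSA, and 32.4 and 68.8 CPM under E6R. Its log2 fold change was -1.72 for TSA against DMSO (SE 0.41, adjusted p = 0.0168) and 3.84 for E6R against TSA (SE 0.41, adjusted p = 0.000638). The higher gene, NPPC, had 0 and 0 UMIs under DMSO and 12 and 5 under TSA. For E6R against TSA, 3 cargo genes were higher, CRH, VIP and NPY, and 0 were lower, beside 18.7% and 19.5% of all genes. With either TSA library left out the count for TSA against DMSO was 0 and the count for E6R against TSA was 1, and without DMSO replicate 2, where CRH lost its call (adjusted p = 0.0720), the first count was 1. NPPC, VIP, NPY and the enzymes called for E6R against TSA are named because the counts are small, after their values were seen.

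Of 13 tested transcription regulators of neuroendocrine genes, 0 were higher and 5 lower under TSA than under DMSO, beside 16.2% and 13.5% of all genes. Their median log2 fold change was -0.70. The log2 fold change was -0.75 for CREB1 (SE 0.20, adjusted p = 0.0242) and -0.78 for PROX1, a homeodomain factor (SE 0.23, adjusted p = 0.0355). Under E6R relative to TSA 4 were higher and 0 lower, beside 18.7% and 19.5% of all genes. Among the 4 were CREB1 (0.63, adjusted p = 0.0355) and PROX1 (0.74, adjusted p = 0.0339). Both counts were 0 when either TSA library was left out, and the first was 1 without DMSO replicate 1 and 3 without DMSO replicate 2. The adjusted p of REST was 0.633 for TSA against DMSO and 0.512 for E6R against TSA. In edgeR no gene of the 5 lists passed for E6R against DMSO.

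The scaling matters for the direction of small changes under TSA. With total UMIs alone in place of TMM the median of all genes moved from -0.01 to -0.32, and 1717 genes were higher and 3361 lower, against 2720 and 2255. The pump genes then counted 5 higher and 0 lower and the regulators 0 and 6, while the vesicle genes counted 6 and 9, with a median of -0.25. Marker lists changed under TSA too, in the fit with TMM, where 16.2% of all genes were higher and 13.5% lower. Of 13 adrenergic markers 6 were lower and 0 higher, with a median of -1.53. Of 10 stress genes 5 were higher and 0 lower, with a median of 1.21. Their part in the member values was not tested.

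The genes most like CHGA, the member with the highest mean level, and SCG5, the member with the smallest p for TSA against DMSO, were sought among 7515 genes by Pearson's r of log2 CPM over the 6 libraries. For CHGA these were PDLIM5 (r = 0.976), PPP1R15A (0.965) and RIMS3 (0.958). For SCG5 they were FADD (0.996), SCRN2 (0.994) and ARL2BP (0.991). With 6 points that share 3 treatments, 6 genes reached an r above 0.95 with CHGA and 132 with SCG5, and the values are given as a description only.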

How the data were processed

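The deposited matrices held UMI counts per gene and barcode as whole numbers, which the authors made with STARsolo 2.7.9a on GRCh38, per the submitters' processing notes; other settings and the annotation are not given in the sources used here. A barcode was kept as a cell where it had at least 500 genes and at most 20% of its UMIs from 13 mitochondrial genes. Their counts were summed per library, since cells are not replicates. The sums of 4206366 to 26180262 UMIs were tested with edgeR 4.0.16 in R 4.3.3 (quasi-likelihood F test, TMM, filterByExpr, group as the only term, all 6 libraries in 1 fit, Benjamini-Hochberg adjustment over all 16763 genes at 0.05). SEs are the log2 fold change divided by the root of F. CPM uses TMM-scaled library sizes and is not divided by gene length, so levels are not compared between genes; CPM of depth classes and small barcodes uses plain sums. Replicates differed by more than counting noise, with a chi-square per degree of freedom of 19.7 (DMSO), 41.5 (TSA) and 79.3 (E6R). Doublets were not called; an alternative dropped the 5% of cells that had the most UMIs.

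The test was tested on simulated data first. Other alternatives were DESeq2 1.42.0, other scalings, filters and cell cuts, 2 groups at a time, a replicate block, leaving out each library and, added after the data were seen, leaving out barcodes kept in more than 1 library. Gene positions are from GENCODE 29; promoter windows are from RefSeq. The 10 members and all lists were chosen with earlier results of these data known. From each of the 5 pathway lists the rule named up to 3 genes with the largest change among those called for TSA against DMSO with a mean of at least 20 CPM in a group, plus REST, PAM and FURIN; 1 gene that it named is not reported here. Genes on opposite strands were not separated. No doses or times were analysed here.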

Additional observations from a re-analysis of the deposited data

How the results depend on the processing

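The count of members that passed for TSA against DMSO, 0 of 9, was 1 with total UMIs only, with DESeq2 and with only the 2 groups compared, 3 with no low-count filter, and 0 to 1 when each library was left out. Over all genes, total UMIs only called 5078 and DESeq2 5421 of 16763 for TSA against DMSO. The fit of only the 2 groups called 5998 of 15066 genes and tested 8 members. With no low-count filter 5908 of 31532 genes were called, and 10 members were tested. Between E6R and DMSO the count of members was 1 with no low-count filter and 1 with DESeq2. For E6R against TSA the count of 2 was 4 with no low-count filter and 0 to 3 when each library was left out: 0 without TSA replicate 2 and 1 without TSA replicate 1. For E6R against TSA the fit with no low-count filter called 7572 of 31532 genes. The labels do not say what a replicate number stands for. Deviations of same-numbered libraries correlated over 7515 genes at 0.24 for DMSO and TSA, 0.56 for DMSO and E6R and 0.17 for TSA and E6R. With the replicate block 3 members passed for TSA against DMSO (CHGA and VGF higher, SCG5 lower), 0 for E6R against DMSO and 4 for E6R against TSA (SCG2 and SCG5 higher, CHGA and VGF lower), while it called 6047 and 7567 of all 16763 genes in the first and the last. Over all genes the block called 19 for E6R against DMSO, where DESeq2 called 361, the fit with no low-count filter 1095, and the fits without E6R replicate 1 and without E6R replicate 2 called 3 each, against 0. All deposited barcodes, and leaving out barcodes kept in more than 1 library, gave 1 each there. With 1 library left out the count over all genes was 1416 to 6028 for TSA against DMSO and 2628 to 6385 for E6R against TSA, and cells thinned to 1000 UMIs gave 4177 for the latter, against 6408; where a group was left with 1 library, it was assumed to vary like the others.

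Some values that did not pass changed sign, and none passed with the changed sign. For TSA against DMSO, total UMIs only gave CHGB -0.13, PCSK1N -0.057 and CPE -0.091, thinned cells gave PCSK1N -0.22, all deposited barcodes gave SCG2 0.10 and the replicate block gave SCG2 0.039. For E6R against DMSO, CHGA was 0.18 with all deposited barcodes, 0.049 with at least 300 genes per barcode, 0.013 with at most 10% mitochondrial UMIs, 0.16 with no low-count filter and 0.076 with the replicate block. SCG3 was -0.16 in thinned cells and -0.025 without the 5% of cells with most UMIs, and VGF was -0.027 in thinned cells and -0.024 with at least 1000 genes per barcode. For E6R against TSA, SCG3 was 0.044 with no low-count filter. Leaving out each library gave, for TSA against DMSO, -0.38 to 1.13 for CHGB, -0.40 to 0.45 for SCG2, -0.060 to 0.98 for SCG3, -0.088 to 0.60 for CPE and -1.20 to 0.55 for REST. For E6R against DMSO it gave -0.48 to 0.95 for CHGA, -0.83 to 1.65 for CHGB, -0.62 to 0.89 for SCG3, -2.62 to 2.60 for VGF and -0.90 to 0.35 for PCSK1N. For E6R against TSA it gave -1.03 to 1.18 for CHGB, -1.002 to 0.39 for SCG3, -1.17 to 0.066 for PCSK1N, -0.031 to 1.02 for FURIN and -1.06 to 1.47 for REST. The ends at -1.17 for PCSK1N, 1.02 for FURIN and 1.47 for REST, all without E6R replicate 2, passed with the sign unchanged, as did CHGB for E6R against TSA with no low-count filter (0.65). The cause of these changes was not tested. Depth limits PCSK1, PCSK2 and CPE, with 0 to 105 UMIs per library.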
